A study of Mus musculus with 8 samples.

Results

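The EGF receptor family and its ligands were read in the intestinal epithelium of lactating mice, in 10 genes of the 54532 in the count table. These were the receptor genes Egfr, Erbb2 and Erbb3, the ligand genes Areg, Ereg, Hbegf, Tgfa, Btc and Egf, and Errfi1, whose product inhibits the receptors. The genes were taken by name, not by a threshold on measured values, though with earlier results of these data known. The name of each was found through its Ensembl identifier in GENCODE M21. Of the 10 genes, 8 had enough reads to be tested and 2, Ereg and Egf, had not, and their counts are given instead.

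EGF-type ligands are made as membrane-anchored precursors that proteases cut loose. They bind EGFR, which pairs with another EGFR or with a relative such as ERBB2 or ERBB3, and the paired receptors switch on the RAS to ERK cascade and the PI3K to AKT pathway. In the small intestine this signal drives growth and division in the crypts, where stem cells and their dividing progeny lie, and EGF is a standard supplement for growing crypts as organoids. ERBB2 has no known ligand and acts as a partner, whereas ERBB3 binds neuregulins, has a weak kinase and recruits PI3K. ERRFI1, also called MIG6, binds the kinase domain of the activated receptors and shuts it off.

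The study asked how the gut of the mother grows in pregnancy and lactation, and whether the receptor RANK in the epithelium is needed for it. Intestinal epithelial cells were taken on lactation day 5 from 4 WT and 4 Rank-knockout mice, and each animal gave 1 library. Per the study's methods, the mice were females on a C57BL/6J background, littermates unless stated otherwise, and in the knockout mice a floxed Rank gene was deleted by a Cre recombinase under the Villin1 promoter, a promoter active in the gut epithelium. Rank is the gene Tnfrsf11a. Whether the WT mice carried a floxed allele or the Cre is not given in the sources used here. The labels give the tissue as intestine, with no segment.

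Total counts ran from 1530781 to 4335653 per library, and 3 of the 4 WT libraries were shallower than all Rank-knockout libraries. The defining epithelial genes Epcam, Vil1 and Cdh1 were counted in every library, and the Brunner gland markers Muc6 and Tff2 were at 0 in all of them. Tnfrsf11a was counted in every library, at 41.7 to 77.4 counts per 1000000 (CPM, at TMM-adjusted library sizes) in WT and 27.2 to 47.2 CPM in Rank-knockout, and its log2 fold change of -0.67 (SE 0.22) had an edgeR adjusted p of 0.0321. Its reads come from the 3′ end of the transcript, and that end may be outside the deleted stretch, so this value does not check the deletion. That call was lost under 6 of 14 alternatives, among them the removal of WT replicate 1 (-0.55) or 4 (-0.58) or of Rank-knockout replicate 1 (-0.52) or 3 (-0.64). Over the 9855 genes tested, 15.8% (1555) had a raised level and 14.6% (1438) a reduced level in Rank-knockout by edgeR, with an adjusted p under 0.05 taken as a call, and the median log2 fold change was 0.02. Scaled by library totals instead, 2575 genes were raised and 857 reduced, and with the 50 most abundant genes left out of the library sizes 2171 and 1006.

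Of the 8 members tested, 3 were lower in Rank-knockout, namely Erbb3, Errfi1 and Hbegf, beside the 14.6% of all tested genes called lower. None was higher in edgeR, where 0 also passed an unadjusted p under 0.05, and DESeq2 called 0 higher and 3 lower, beside 14.2% and 15.0% of all genes. Erbb3 was 1.77-fold, Errfi1 1.94-fold and Hbegf 2.35-fold higher in WT than in Rank-knockout. In these 3 genes every Rank-knockout library lay below every WT library, a pattern found in 14.3% of all tested genes. The estimates of the 8 members were below 0 in 7 and above 0 in 1, Egfr, with a median of -0.54. In a bulk library, fewer cells of a type and less RNA per cell cannot be told apart.

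Sequences around the transcription start are shown for Errfi1, a called member, and for Areg, a ligand gene that was not called, because both hold the same motif. RefSeq windows on GRCm38.p6, 250 bases before to 50 bases after a start, were found for 7 of the 10 members, giving 9 windows. Erbb3, Hbegf and Ereg had no window, so Errfi1 was the only called member searched for motifs. The Errfi1 window is chr4:150854820-150855119 on the plus strand and is 1 of 2 for that gene. The Areg window is chr5:91139349-91139648 on the plus strand. Capitals mark the cAMP response element TGACGTCA and the TATA box letters TATAAA.
Errfi1: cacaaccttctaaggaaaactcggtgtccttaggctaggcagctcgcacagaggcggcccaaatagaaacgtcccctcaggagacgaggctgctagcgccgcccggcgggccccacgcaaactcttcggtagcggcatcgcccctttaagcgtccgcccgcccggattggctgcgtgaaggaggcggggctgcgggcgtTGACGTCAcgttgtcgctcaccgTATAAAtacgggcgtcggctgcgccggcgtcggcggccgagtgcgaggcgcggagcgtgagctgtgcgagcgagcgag
Areg: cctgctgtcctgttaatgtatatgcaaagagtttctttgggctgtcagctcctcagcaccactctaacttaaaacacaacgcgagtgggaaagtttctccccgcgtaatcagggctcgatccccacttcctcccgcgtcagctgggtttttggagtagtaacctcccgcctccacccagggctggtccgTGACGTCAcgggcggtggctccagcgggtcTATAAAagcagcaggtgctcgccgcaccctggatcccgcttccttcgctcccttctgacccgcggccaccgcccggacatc
The cAMP response element began 51 bases before the start in Errfi1 and 61 bases before it in Areg. Read on both strands, TGACGTCA was in 2 of the 9 member windows and in 1.79% of 32851 windows of this length genome-wide. TATAAA was in the same 2 member windows and in 13.6% of all windows. The AP-1 letters TGANTCA, which do not match TGACGTCA, were in 0 of the member windows and in 7.81% of all windows. The NF-κB motif was in 1 member window, that of Tgfa, and in 8.46% of all windows, and the serum response element was in 0 and in 1.63%. These are matches of letters, and no binding was measured.

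Erbb3 (ENSMUSG00000018166, chr10:128567523-128589652, minus strand, GRCm38) was the receptor gene that fell. It stood at 428, 389.7, 333 and 415 CPM in WT replicates 1 to 4 and at 197, 196, 196 and 293 CPM in Rank-knockout replicates 1 to 4. The genotypes did not overlap, and 3 of the Rank-knockout libraries agreed closely while replicate 4 lay nearer to WT. The WT mean was 391 ± 42.2 CPM and the Rank-knockout mean 221 ± 48.2 CPM (SD, n = 4 each). On the log2 scale the change was -0.83 (SE 0.16, 95% interval -1.16 to -0.49, edgeR adjusted p = 0.00155). These values rest on 437 to 1538 counts per library.

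Egfr (ENSMUSG00000020122, chr11:16752203-16918158, plus strand), the receptor that binds the EGF-type ligands, stood at 16.4, 16.5, 17.8 and 19.97 CPM in WT and at 21.4, 20.6, 24.7 and 13.7 CPM in Rank-knockout. Of the Rank-knockout libraries 3 were above all WT libraries and replicate 4 was below them all, so the genotypes overlapped. The log2 fold change was 0.19 (SE 0.22, 95% interval -0.28 to 0.65, edgeR adjusted p = 0.556), an interval that spans folds from 0.824 to 1.57. Removing Rank-knockout replicate 3 gave 0.08, removing replicate 4 gave 0.34 and scaling by library totals gave 0.39, and none of these passed. Egfr had 24 to 101 counts per library, and 3 WT libraries had 30 or fewer.

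Erbb2 (ENSMUSG00000062312, chr11:98412470-98437716, plus strand), the partner receptor, stood at 189.8, 192, 139 and 139.8 CPM in WT and at 99.6, 146, 148 and 159 CPM in Rank-knockout. Rank-knockout replicate 1 was the lowest library, and the other three lay between the lower and the higher WT pair. The log2 fold change was -0.26 (SE 0.17, 95% interval -0.63 to 0.10, edgeR adjusted p = 0.255). It was -0.13 without Rank-knockout replicate 1, -0.14 with library sizes that leave out the 50 most abundant genes and -0.07 with library totals.

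**Figure D1:**
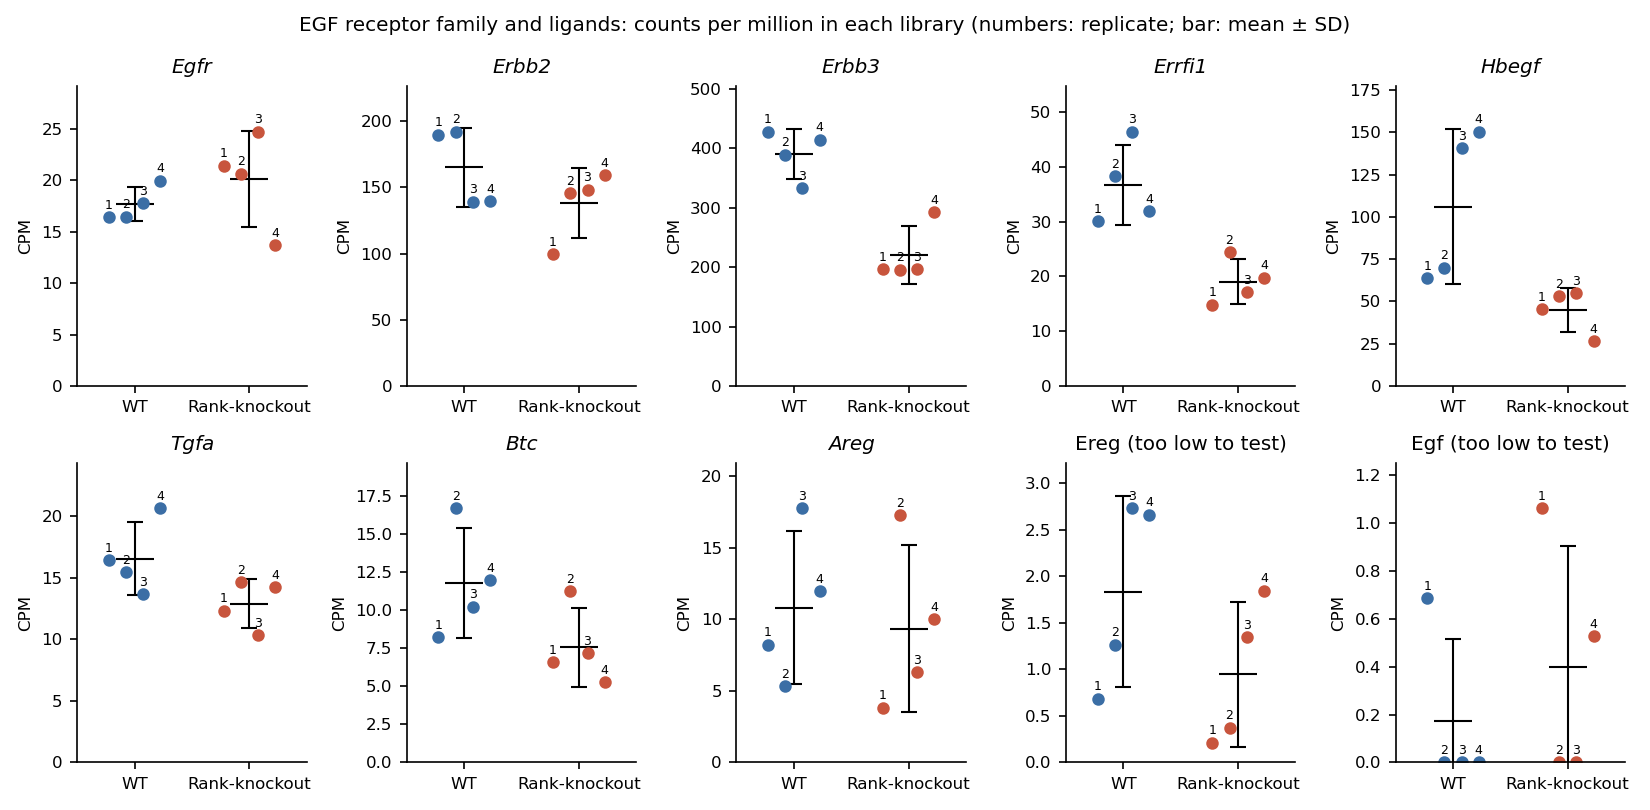
Level of each of the 10 members in CPM in the 4 WT and the 4 Rank-knockout libraries, with the mean and SD of each genotype. Ereg and Egf were too low to test. The Erbb3, Errfi1 and Hbegf libraries of the genotypes do not overlap, and Rank-knockout replicate 4, at 293 CPM, is the highest of its genotype for Erbb3.

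A ratio of 2 genes within a library does not depend on how libraries are scaled, so the receptors and Errfi1 were also set against Egfr. It is a ratio of 3′ reads and not of molecules, and is given as log2 with 0.5 added to each count. The log2 ratio of Erbb3 to Egfr was 4.67, 4.55, 4.20 and 4.35 in WT and 3.19, 3.23, 2.98 and 4.404 in Rank-knockout. Replicate 4 of Rank-knockout lay within the WT range and the other three lay below it. The difference was -0.99 (exact two-sided permutation p = 0.0857, adjusted over the 3 ratios 0.129, n = 4 each), and without Rank-knockout replicate 4 it was -1.31 (adjusted exact p = 0.0429). Leaving out any of the other 7 libraries gave an adjusted exact p of 0.129 to 0.171.

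The log2 ratio of Errfi1 to Egfr was 0.67 to 1.37 in WT and -0.53 to 0.52 in Rank-knockout, with no overlap. The means were 1.03 ± 0.32 and -0.07 ± 0.54 (SD, n = 4 each), a difference of -1.10. Permuting the genotypes exactly gave a two-sided p of 0.0286, the lowest value available from 70 assignments, and 0.0857 after adjustment over the 3 ratios. Without Rank-knockout replicate 4 the difference was -1.30 and the adjusted exact p 0.0429. This unadjusted p could go no lower, and its adjustment also depends on the other ratios. Leaving out any of the other 7 libraries kept the adjusted exact p at 0.0857 to 0.171 for Errfi1. For Erbb2 to Egfr the difference was -0.41 (exact permutation p = 0.286), and the genotypes overlapped, with -0.22 left without Rank-knockout replicate 1 and -0.66 (adjusted exact p = 0.0857) without replicate 4 of that genotype. None of the 3 ratios passed 0.05 after adjustment with all 8 libraries, where 1 passed unadjusted. With the lowest exact p at 0.0286, 1 ratio alone at that value could not pass after adjustment.

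**Figure D2:**
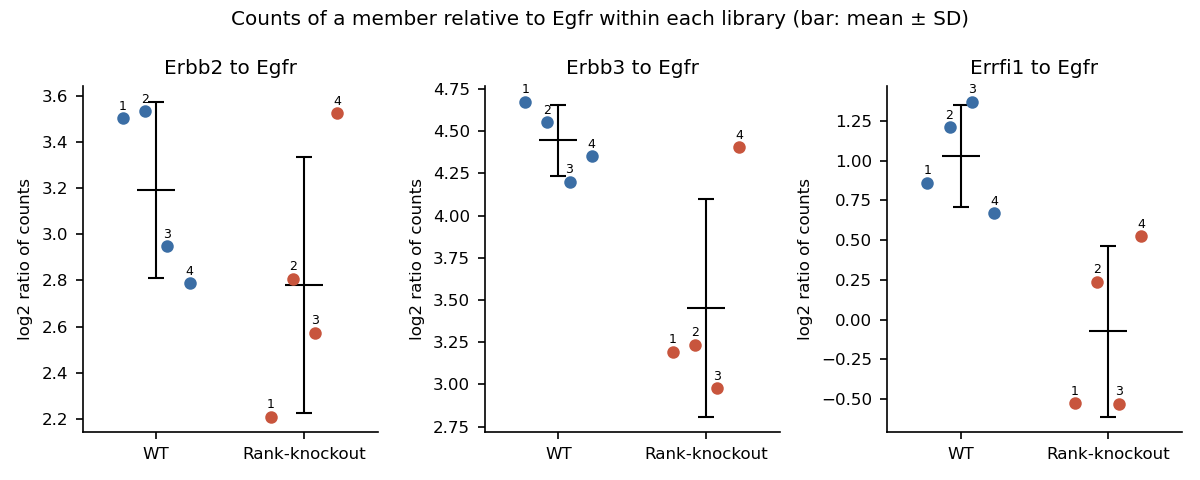
Log2 ratio of the counts of Erbb2, Erbb3 and Errfi1 to those of Egfr in each of the 4 WT and 4 Rank-knockout libraries, with 0.5 added to each count; the bars are means ± SD. The Errfi1 ratios of the genotypes do not overlap, whereas for Erbb3 Rank-knockout replicate 4, at 4.404, lies among the WT libraries.

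Errfi1 (ENSMUSG00000028967, chr4:150853919-150868892, plus strand), the gene of the receptor inhibitor and itself induced by EGFR signalling, stood at 30.1, 38.3, 46.4 and 32.0 CPM in WT. In Rank-knockout it stood at 14.9, 24.4, 17.1 and 19.8 CPM. All Rank-knockout libraries were below the lowest WT library. The means were 36.7 ± 7.37 CPM and 19.0 ± 4.102 CPM (SD, n = 4 each), on 38 to 151 counts per library. Its log2 fold change was -0.96 (SE 0.21, 95% interval -1.40 to -0.52, edgeR adjusted p = 0.00319).

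Hbegf (ENSMUSG00000024486, chr18:36504927-36515805, minus strand), which encodes heparin-binding EGF-like growth factor, a ligand of EGFR and ERBB4, was the only ligand gene called. It stood at 63.7, 69.9, 141 and 150.4 CPM in WT and at 45.4, 53.3, 54.9 and 26.6 CPM in Rank-knockout. The WT libraries formed a lower pair, replicates 1 and 2, close above the Rank-knockout range, and a higher pair, replicates 3 and 4. The means were 106 ± 45.7 CPM and 45.05 ± 13.0 CPM (SD, n = 4 each). On the log2 scale the change was -1.23 (SE 0.32, 95% interval -1.93 to -0.54, edgeR adjusted p = 0.0138). The call was lost without Rank-knockout replicate 1 (-1.24, edgeR adjusted p = 0.0519).

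The same WT pair was high in a pair of immediate early genes, which cells switch on within minutes of a stimulus. Fos stood at 84.3, 64.1, 156 and 156 CPM in WT and Junb at 117, 113, 202 and 198 CPM. In Rank-knockout Fos was at 36.4 to 41.4 CPM and Junb at 72.2 to 123 CPM. The part of this WT pair in the Hbegf result was not tested. The call on Hbegf was kept when WT replicate 3 (-1.08) or WT replicate 4 (-1.05) was left out alone, and both were never left out together. WT replicates 3 and 4 both lay above replicates 1 and 2 in 3 of the 8 tested members (Areg, Egfr and Hbegf), in 7 of the 14 tested genes of the ERK response list (Egr1, Epha2, Fos, Junb, Mcl1, Phlda1 and Spred2) and in 19.5% of all tested genes. This comparison, and the genes in it other than Fos and the members, were chosen after the values were seen.

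Btc, the gene of betacellulin, stood at 8.22, 16.7, 10.2 and 11.98 CPM in WT and at 6.58, 11.3, 7.19 and 5.27 CPM in Rank-knockout. Only Rank-knockout replicate 2 reached into the WT range. The log2 fold change was -0.73 (SE 0.30, 95% interval -1.36 to -0.09), with an edgeR adjusted p of 0.0758. It was -0.96 (edgeR adjusted p = 0.0355) without that library and -0.46 (edgeR adjusted p = 0.309) without WT replicate 2, the highest library.

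Tgfa, the gene of transforming growth factor alpha, stood at 16.4, 15.5, 13.7 and 20.6 CPM in WT and at 12.3, 14.6, 10.3 and 14.2 CPM in Rank-knockout, and the genotypes overlapped. Its log2 fold change was -0.35 (SE 0.22, 95% interval -0.81 to 0.12, edgeR adjusted p = 0.250), and it was -0.14 with library totals and -0.21 without the 50 most abundant genes in the library sizes. Areg, the gene of amphiregulin, stood at 8.22, 5.32, 17.8 and 11.98 CPM in WT and at 3.82, 17.3, 6.29 and 10.02 CPM in Rank-knockout. The Areg values were spread over the same range in both genotypes, and the log2 fold change of -0.15 (SE 0.47, 95% interval -1.18 to 0.87, edgeR adjusted p = 0.838) took the opposite sign under 3 alternatives. Its interval spans folds from 0.443 to 1.83.

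**Figure D3:**
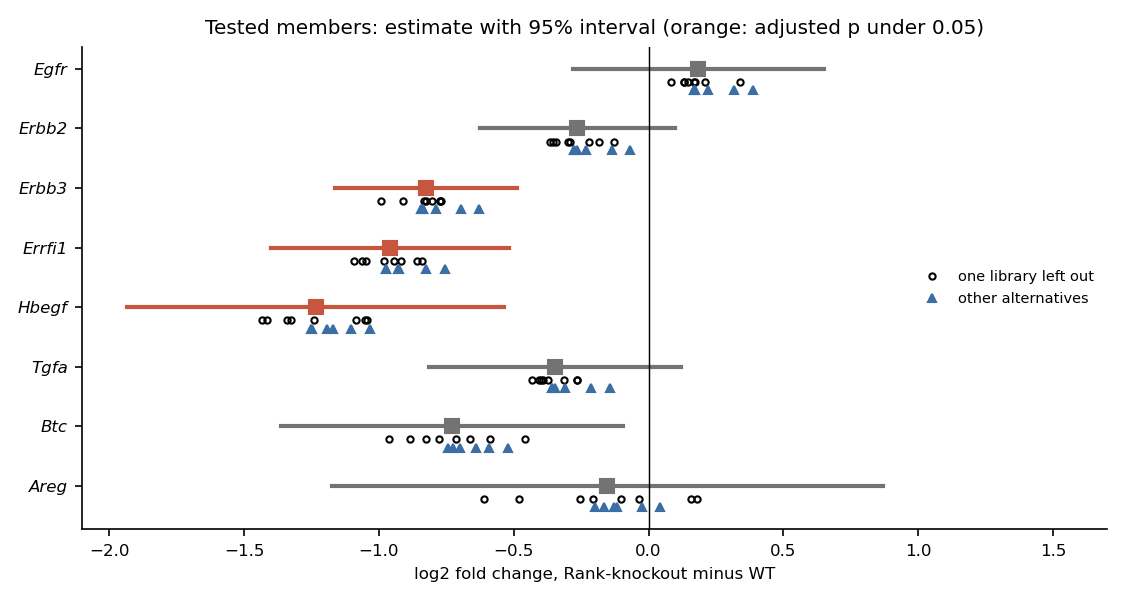
Log2 fold change, Rank-knockout minus WT, of the 8 tested members with its 95% interval (squares and lines, orange where the edgeR adjusted p is under 0.05), with the estimates when 1 library is left out (circles) and under other alternatives (triangles). The estimates of Erbb3, Errfi1 and Hbegf stay below 0 throughout, from -0.63 to -0.99, -0.76 to -1.09 and -1.03 to -1.43, and Areg spans 0.

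Ereg, the gene of epiregulin, had 1, 5, 4 and 4 counts in WT and 1, 1, 3 and 7 counts in Rank-knockout. Summed over the libraries these 14 and 12 counts gave 1.67 and 0.896 CPM, a ratio of 0.536 with an exact 95% interval of 0.226 to 1.25. Egf, the gene of the founding ligand, had 1 count in WT, in replicate 1, against 7 in Rank-knockout, 5 of them in replicate 1 and 2 in replicate 4. Its ratio of 4.38 had an exact interval of 0.562 to 197, and neither gene showed a difference that these depths could detect. The intervals cover counting error only, over pooled libraries. Without the filter on low counts edgeR gave log2 fold changes of -0.86 for Ereg (adjusted p = 0.473) and 1.67 for Egf (adjusted p = 0.443).

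The ligand genes Areg, Ereg, Btc and Epgn, the last encoding epigen, lie together within 376 kb of mouse chromosome 5, as the only 4 protein-coding genes of that stretch. Of these, Areg and Btc were tested and not called, Ereg was too low to test, and Epgn had 0 counts. The called ligand gene, Hbegf, lies elsewhere.

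The remaining genes of the family were mostly at or near 0. Erbb4, the fourth receptor, Epgn, and the neuregulins Nrg2 and Nrg3 had 0 counts in all 8 libraries, which allows up to 0.138 CPM over all of them. Nrg1, a ligand of ERBB3, had 5 counts in all, 2 of them in WT. Nrg4, a ligand of ERBB4, stood at 15.1, 20.8, 6.83 and 9.98 CPM in WT and at 5.94, 9.38, 6.29 and 10.02 CPM in Rank-knockout. The genotypes overlapped for Nrg4, and its log2 fold change was -0.82 (SE 0.32), at an edgeR adjusted p of 0.0635. Removing WT replicate 2 left -0.43 (edgeR adjusted p = 0.349), and removing replicate 3 of WT gave -1.04 (edgeR adjusted p = 0.0238). Of these 6 genes 1 could be tested, and edgeR and DESeq2 called 0, with 1 lower at an unadjusted p under 0.05.

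Of 17 genes for ligand shedding and receptor turnover, 15 were tested, 1 was higher and 0 were lower, beside 15.8% and 14.6% of all tested genes. The median log2 fold change was -0.02 beside 0.02 over all tested genes. For the lower direction, 0 also passed an unadjusted p under 0.05 in edgeR and 0 were called by DESeq2. The gene that rose was Lrig1, a membrane protein that promotes the breakdown of EGF receptors and marks crypt stem cells. It stood at 6.17, 4.31, 2.73 and 7.99 CPM in WT and at 18.04, 11.3, 8.99 and 12.7 CPM in Rank-knockout, and all Rank-knockout libraries were above all WT libraries, as in 14.4% of all tested genes. The log2 fold change of Lrig1 was 1.34 (SE 0.33), at an edgeR adjusted p of 0.00647. Adam17, the main sheddase of several of these ligands, was at 109 to 119.8 CPM in WT and 125 to 138 CPM in Rank-knockout, with a log2 fold change of 0.19 (SE 0.13), at an edgeR adjusted p of 0.271. With library totals it was 0.39 (edgeR adjusted p = 0.0246), past the threshold. Adam17 was named after its values were seen.

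In the RAS to ERK cascade all 18 genes were tested, 3 were lower and 0 higher, with a median of -0.15. Over all tested genes 14.6% were lower and 15.8% higher. In the higher direction 0 passed an unadjusted p under 0.05 in edgeR and 0 were called by DESeq2. Map2k2, which encodes the kinase MEK2, stood at 381, 462, 456 and 457 CPM in WT and at 311, 274, 313 and 336 CPM in Rank-knockout. Its log2 fold change was -0.51 (SE 0.13), at an edgeR adjusted p of 0.00936. Mapk3, the gene of ERK1, the target of MEK2, stood at 1399, 1701, 1409 and 1361 CPM in WT and at 966, 1069, 1065 and 1166 CPM in Rank-knockout, a log2 fold change of -0.46 (SE 0.14), at an edgeR adjusted p of 0.0208. Sos2, an exchange factor that loads RAS with GTP, was at 63.5 to 105 CPM in WT and 46.9 to 59.4 CPM in Rank-knockout, a log2 fold change of -0.59 (SE 0.18), at an edgeR adjusted p of 0.0188. The genotypes did not overlap in any of the 3 genes, a pattern found in this direction in 14.3% of all tested genes. All 3 calls were lost when libraries were scaled by their totals, where the values were -0.31, -0.26 and -0.39 for Map2k2, Mapk3 and Sos2. The Mapk3 and Sos2 calls were also lost with library sizes that leave out the 50 most abundant genes (-0.33 and -0.46). The scaling by totals moved the median of all genes by 0.20. Leaving out 1 library also ended the Sos2 call (without WT replicate 2, -0.40, or Rank-knockout replicate 1, -0.54, or 2, -0.56) and the Mapk3 call (without WT replicate 2, -0.39, or Rank-knockout replicate 2, -0.46, or 3, -0.46).

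Of 15 genes in the PI3K to AKT arm, 14 were tested, 1 was higher and 1 lower, beside 15.8% and 14.6% of all tested genes. The median was -0.03. Akt1, the gene of the kinase AKT1, stood at 33.6, 23.8, 39.6 and 32.0 CPM in WT and at 61.6, 40.9, 52.2 and 46.7 CPM in Rank-knockout. Its log2 fold change was 0.67 (SE 0.19), at an edgeR adjusted p of 0.0157. Pik3r2, which encodes a regulatory subunit of PI3K, stood at 41.8, 51.7, 43.7 and 62.6 CPM in WT and at 28.7, 36.0, 36.0 and 32.7 CPM in Rank-knockout. Its log2 fold change was -0.59 (SE 0.18), at an edgeR adjusted p of 0.0181. Neither gene overlapped between the genotypes, as in 14.4% of all tested genes in the higher and 14.3% in the lower direction. Without Rank-knockout replicate 1 both calls were lost, with log2 fold changes of 0.56 for Akt1 and -0.52 for Pik3r2. The Pik3r2 call was also lost with library totals (-0.39), without WT replicate 4 (-0.51) and with library sizes that leave out the 50 most abundant genes (-0.46).

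Of 22 genes of the response to ERK and its feedback, 14 were tested, 1 was higher and 2 were lower, beside 15.8% and 14.6% of all tested genes. The median was -0.30, with 10 estimates below 0 and 4 above 0. Fos, whose values are given above, had a log2 fold change of -1.53 (SE 0.26), at an edgeR adjusted p of 0.000949, the largest fall among the tested genes of the 5 lists. Dusp5, a phosphatase that acts on ERK in the nucleus, stood at 46.6, 42.3, 34.1 and 61.2 CPM in WT and at 24.6, 27.8, 30.6 and 38.8 CPM in Rank-knockout. Rank-knockout replicate 4 reached into the WT range, and the Dusp5 log2 fold change of -0.59 (SE 0.20), at an edgeR adjusted p of 0.0375, lost its call under 7 of 14 alternatives, with values from -0.39 to -0.61, among them the removal of WT replicate 1 or 4 or of Rank-knockout replicate 1, 2 or 3. Ccnd1, which encodes cyclin D1 and has many inputs besides ERK, stood at 147, 140.4, 184 and 86.5 CPM in WT and at 488, 368, 337 and 319 CPM in Rank-knockout. It was 2.71-fold higher in Rank-knockout, a log2 fold change of 1.44 (SE 0.20), at an edgeR adjusted p of 0.000274. Over the 5 lists, 3 of 62 tested genes were higher and 6 lower, beside 15.8% and 14.6% of all tested genes.

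**Figure D4:**
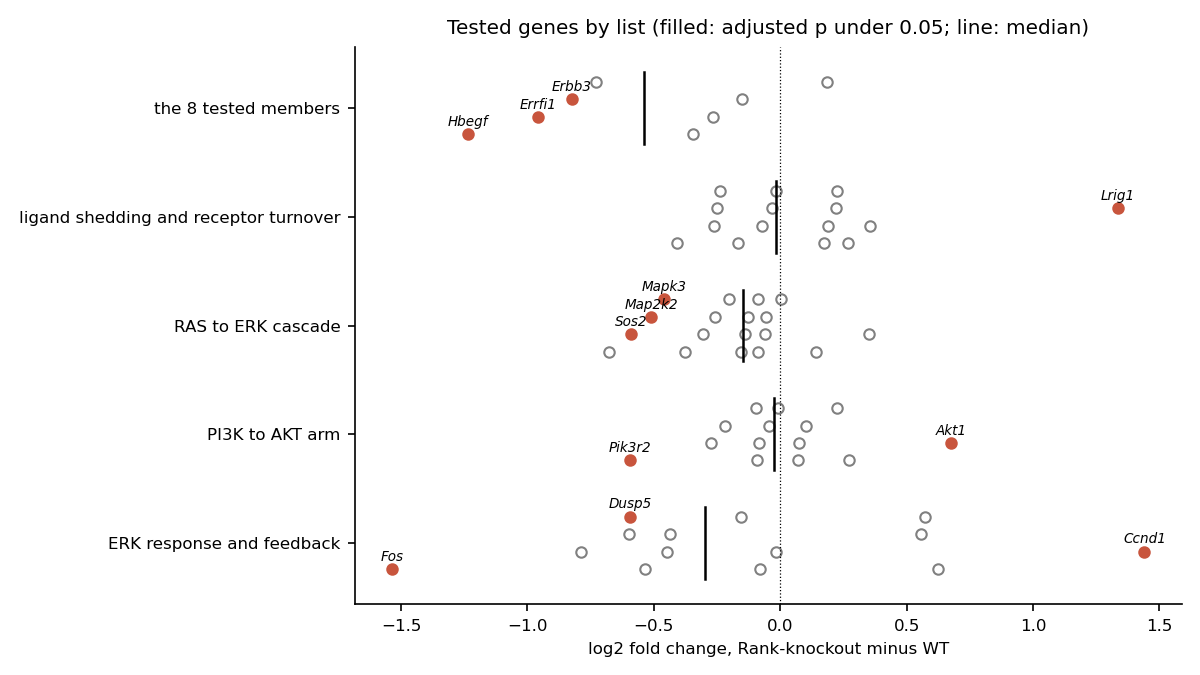
Log2 fold change, Rank-knockout minus WT, of the 8 tested members and of every tested gene of the 4 pathway lists with several tested genes (circles, filled where the edgeR adjusted p is under 0.05), with each median as a line. The 4 pathway medians lie between -0.30 and -0.02, and their called genes lie on both sides of 0.

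Levels of cell type markers also differed between the genotypes. Of 12 villus enterocyte markers 11 were lower in Rank-knockout, with a median of -1.06, and their summed level was 26678 to 37225 CPM in WT and 12945 to 18023 CPM in Rank-knockout. All 12 markers of cycling crypt cells were higher, with sums of 412 to 646 CPM and 957 to 1643 CPM. Of 7 tested stem cell markers 3 were higher, with sums of 340.1 to 503 CPM and 497 to 1078 CPM, and of 9 Paneth markers 6 were higher, with sums of 2110.2 to 4492 CPM and 2925 to 9381 CPM. Rank-knockout replicate 4 had the lowest crypt, stem and Paneth sums of its genotype, at 957, 497 and 2925 CPM. Its villus sum, at 18023 CPM, and its Erbb3 level were the highest. That library also had the lowest Hbegf level of its genotype, at 26.6 CPM, and its Lrig1 level, at 12.7 CPM, was the second highest. The part of this shift between villus and crypt markers in the results on Erbb3, Errfi1, Hbegf, Lrig1 and Ccnd1 was not tested.

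Among goblet markers 2 of 8 were higher and 4 lower, with sums of 13097 to 17423 CPM in WT and 7379 to 10089 CPM in Rank-knockout. Of 8 epithelial markers 2 were higher and 3 lower, with sums of 11437 to 12539 CPM and 8923 to 11262 CPM. For enteroendocrine cells (8 tested), tuft cells (5), immune cells (5) and stromal or muscle cells (2), edgeR and DESeq2 called 0 markers. With low-count genes kept in the fit, edgeR called the plasma cell marker Jchain of the immune list lower (log2 fold change -1.38, adjusted p = 0.0191), on 51 counts in WT and 29 in Rank-knockout, with no overlap. At an unadjusted p under 0.05, 1 enteroendocrine marker was higher and 1 lower, 1 tuft and 1 immune marker were lower, and 0 stromal markers passed. The summed immune level was 189 to 289.6 CPM in WT and 122 to 199 CPM in Rank-knockout, with the B cell marker Cd79a at 0, and the stromal sum was 27.3 to 46.1 CPM and 27.0 to 51.4 CPM. The enteroendocrine sum was 530.2 to 624 CPM and 424 to 719.9 CPM, and the tuft sum 36.9 to 62.6 CPM and 38.0 to 52.6 CPM.

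**Figure D5:**
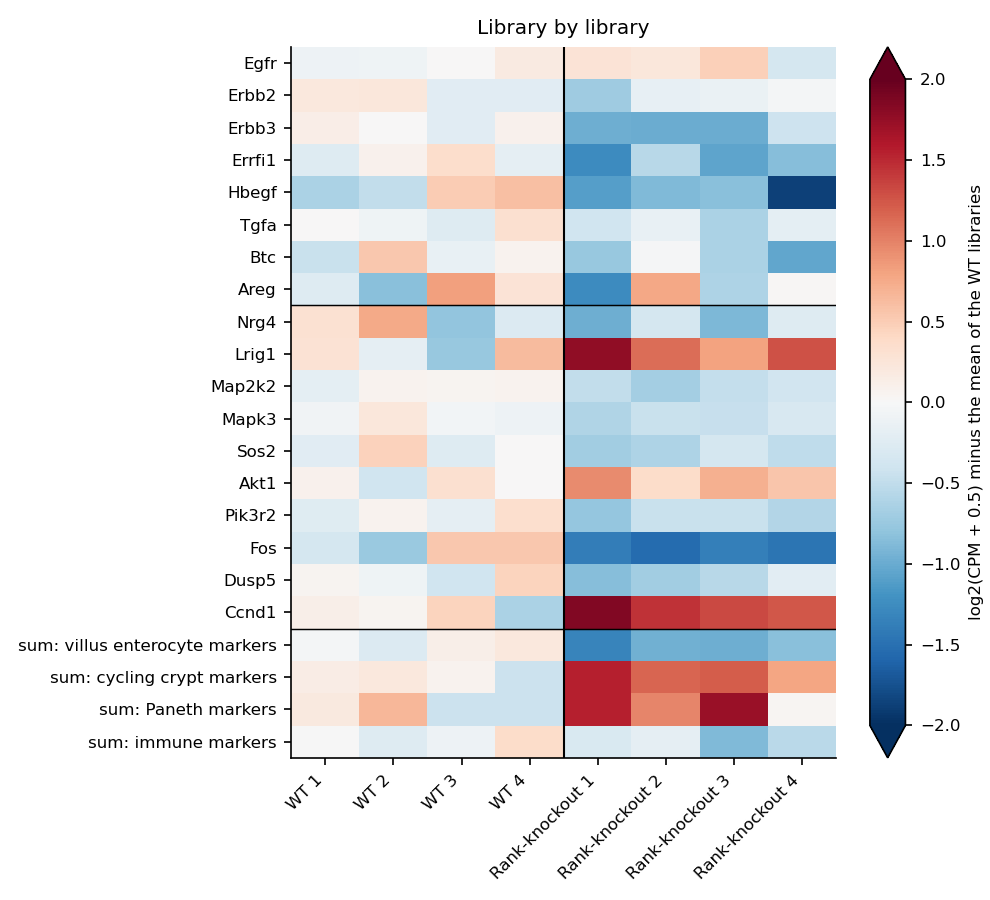
Each tested member, Nrg4, the called pathway genes and the summed level of 4 marker lists in each of the 8 libraries, as log2(CPM + 0.5) minus the mean of the WT libraries. Rank-knockout libraries are low for Erbb3, Errfi1, Hbegf, Fos and the villus sum and high for Ccnd1, Lrig1 and the cycling crypt sum, and replicate 4 is the closest to WT for Erbb3.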

How the data were processed

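RNA of intestinal epithelial cells was sequenced from the 3′ end as single reads. The authors used BBDuk for trimming, bowtie2 to discard abundant sequences, STAR for alignment to GRCm38 (Ensembl annotation), featureCounts on the sense strand for counting and DESeq2 for tests; the deposited values are raw counts per gene. No molecular identifiers are described, PCR copies are therefore counted, and intervals on counts cover counting error only. As 1 transcript gives about 1 read, CPM values are not corrected for length and levels of different genes are not compared. Groups came from the sample labels, and no libraries of a genotype were alike within sampling noise (chi-square per degree of freedom at least 3.97).

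Here all genes that passed filterByExpr were tested in R 4.3.3 with edgeR 4.0.16 (TMM scaling, robust quasi-likelihood F-test, genotype as the only term, Benjamini-Hochberg adjustment over 9855 genes, threshold 0.05). The script was checked on simulated counts in which 200 genes were changed, where edgeR called 2993 in these data. That check does not bear on the choice of scaling. Ratios were tested by exact two-sided permutation. Alternatives were scaling by library totals, by RLE or by totals that omit the 50 most abundant genes, no filter, DESeq2 1.42.0, the replicate number as a block, each library left out in turn and, for ratios, a pseudocount of 2.

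The members, the 5 pathway lists (other ErbB genes, ligand shedding and receptor turnover, RAS to ERK, PI3K to AKT, ERK response and feedback) and the 11 marker lists (epithelium, villus enterocyte, cycling crypt, stem, Paneth, goblet, enteroendocrine, tuft, immune, stromal or muscle, Brunner gland) were chosen with earlier results of these data known. The text names all members, Tnfrsf11a, all other ErbB genes and, of each other pathway list, the called genes up to 4, and marker genes where a list of cell type markers is described. Other pathway genes it names (Adam17, Junb, Egr1, Epha2, Mcl1, Phlda1 and Spred2) were chosen after their values were seen. Hgs has 2 identifiers, both at 0 counts. Promoter windows came from RefSeq.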

Additional observations from a re-analysis of the deposited data

Results flagged for a closer look

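In 3 of the 40 sets of 4 values examined, 1 library lay apart from the other three by Dixon's test at its 95% critical value, where chance gives about 2. Erbb3 in Rank-knockout replicate 4 was at 293 CPM, against 196 to 197 CPM in the other three. Map2k2 in WT replicate 1 was at 381 CPM, against 456 to 462 CPM. Mapk3 in WT replicate 2 was at 1701 CPM, against 1361 to 1409 CPM.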

How the results depend on the processing

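Erbb3 and Errfi1 were called lower under all 14 alternatives, with an adjusted p of up to 0.00803 and 0.0141. The count of members called was 2 to 4 lower and 0 higher throughout. Areg reversed with library totals (0.04), and with 1 library left out it ran from -0.61 to 0.18, reversing when WT replicate 3 (0.18) or Rank-knockout replicate 1 (0.16) was removed. Nrg4 was called without the filter (-0.79, adjusted p = 0.0428), without WT replicate 3 (-1.04, adjusted p = 0.0238) and without Rank-knockout replicate 4 (-0.97, adjusted p = 0.0419). Without WT replicate 2 the Nrg4 value was -0.43 (edgeR adjusted p = 0.349). With library totals, edgeR called 2575 genes higher and 857 lower, and 7 pathway genes higher and 1 lower; with library sizes that leave out the 50 most abundant genes it called 2 pathway genes lower. These scalings moved the median of all genes by 0.20 and 0.13, and the missing filter moved it by 0.10. With 1 library left out, 1020 to 1723 genes were higher, and 3 to 5 pathway genes were higher and 3 to 10 lower; 1020 came without WT replicate 4, 5 and 10 without WT replicate 2, 10 also without Rank-knockout replicate 4, and 3 lower without Rank-knockout replicate 1 or 2. The Erbb3 to Egfr and Errfi1 to Egfr differences ran from -1.31 to -0.83 and from -1.30 to -0.95. The cause of these changes was not tested.

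Same-numbered libraries did not pair: their deviations correlated at 0.05, 0.15, -0.14 and 0.32, and 2 of 4 WT libraries correlated best with their own number. With the number as a replicate block 1708 genes were higher and 1602 lower, 2 members (without Hbegf, at -1.17 and an adjusted p of 0.0810) and 8 pathway genes were lower, 3 pathway genes were higher, and the ratio tests by sign flips gave adjusted p of 0.375 or more, in a design too small to pass 0.05. Few counts of Ereg, Egf, Areg and Egfr in the shallower WT libraries limit what could be seen.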
